A study of Homo sapiens with 15 samples.

Results

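The genes described here are the human translation initiation and elongation factors, with the kinases, binding proteins and methyltransferases that share their names. Members were the genes whose symbol begins with EIF1 to EIF6, EEF1 or EEF2 in the platform's table of probe sets, without pseudogenes and antisense transcripts. This gave 35 of the 14884 named genes, out of 37 symbols with these letters. EEF1DP3, a pseudogene, and EIF1B-AS1, an antisense transcript, were left out. EIF4EBP1 and EIF4EBP2 end in a P and a digit but are protein-coding eIF4E-binding proteins, so they were kept, and a literal reading of the ending would leave 33 members. EIF3J-DT, a noncoding divergent transcript, was kept by its letters. The subunits of eIF3, eIF2 and eIF2B, the eIF4G scaffolds, EIF4A1 and EIF4A2 are not analysed here.

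The cells were HEK293T, an established line of human embryonic kidney origin. They received siRNA and, 48 hours afterwards, 1 ug/mL of actinomycin D over 4 hours, and their total RNA was hybridised to 15 whole-transcript arrays. Actinomycin D, which blocks transcription, was given to all 5 groups, so a level reflects both the amount of an mRNA before the drug and its decay during it. The siRNAs were directed against LOC550643, which encodes the microprotein NoBody (NoBody siRNA below), against Dcp2, the catalytic subunit of the mRNA decapping enzyme, against DcpS, the scavenger decapping enzyme, and against GAPDH, a glycolytic enzyme. The NoBody siRNA is recorded as a pool of 4 siRNAs, and no pool size is recorded for the other siRNAs. The reference was a non-silencing siRNA that matches no human gene, and each group had 3 arrays. Whether the 3 arrays of each siRNA stand for independent cultures is not stated in the labels, and the p-values therefore reflect the spread among these arrays alone, which may be technical. In such bulk RNA, fewer cells of a type and less RNA per cell cannot be told apart.

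Translation of most mRNAs begins when eIF4E binds the cap and joins a scaffold and the helicase eIF4A, aided by eIF4B and eIF4H. The small ribosomal subunit, carrying initiator tRNA on eIF2, scans to a start codon, where eIF1 guards accuracy, eIF5 triggers GTP hydrolysis by eIF2, and eIF5B joins the large subunit. In elongation, eEF1A delivers aminoacyl-tRNA, the eEF1B complex (to which eEF1G belongs) recharges eEF1A, and eEF2 moves the ribosome along. The 4E-binding proteins hold eIF4E from its scaffold until the kinase mTORC1 phosphorylates them, and 4 kinases that phosphorylate eIF2 slow initiation in stress. The decapping enzymes act on the same cap that eIF4E binds.

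Many elongation factor mRNAs are known to start with a C followed by a run of pyrimidines, the 5′ terminal oligopyrimidine tract through which mTORC1 controls their translation. The start regions of members that the results turn on are printed to show which have such a run at or near the annotated start. They are from RefSeq (GRCh38.p14), 15 bases before and 15 after the annotated start. Capitals mark a C within 5 bases of the start, on either side, with at least 4 pyrimidines after it.
EEF1A1 (chr6:73521018-73521047, minus strand): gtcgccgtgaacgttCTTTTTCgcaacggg
EEF2 (chr19:3985449-3985478, minus strand): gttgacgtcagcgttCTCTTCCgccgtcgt
EIF4B (chr12:53006441-53006470, plus strand): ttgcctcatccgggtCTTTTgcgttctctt
EEF1G (chr11:62573877-62573906, minus strand): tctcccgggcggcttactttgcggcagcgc
EIF5B (chr2:99337374-99337403, plus strand): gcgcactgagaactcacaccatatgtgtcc
EIF5, first start (chr14:103334222-103334251, plus strand): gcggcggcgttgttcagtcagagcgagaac
EIF5, second start (chr14:103334873-103334902, plus strand): atcccggcacCCCTCggccgtgtgtcgctt
EIF4EBP2 (chr10:70404130-70404159, plus strand): ctcccgccttcgcccgCTTCCggtcgtcgt

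In EEF1A1, EEF2 and EIF4B the marked C is the annotated first base, and in EEF1G, EIF5B and the first start of EIF5 no such run was found. At the second start of EIF5 the marked run lies wholly before the annotated first base, so it is not part of the mRNA as annotated. The wider search below still counts EIF5. Of the 35 members, 29 were matched to a promoter in the RefSeq table. Searched on the gene's strand, a run with its C within 5 bases of the start was found in 10 of these 29 members (34.5%), against 21.1% of all 35116 promoter windows. A stricter search, with the C exactly at the annotated start, was added after the counts of the wider search were seen. It found 4 members (13.8%), EEF1A1, EEF2, EIF2D and EIF4B, against 4.07% of windows. The excess over all windows thus depends on the search, members can have several windows, and a match is a description of letters only.

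For EIF2AK2, the interferon-inducible kinase PKR, 40 bases before and 15 after the start are printed because the gene is known for an interferon-response type of element there. Capitals mark GAAA, any 2 bases and GAAA.
EIF2AK2 (chr2:37156966-37157020, minus strand): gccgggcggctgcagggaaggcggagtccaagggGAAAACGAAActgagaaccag

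Searched on both strands of the 300-base windows, this motif was found in 2 of the 29 matched members (6.9%), EIF2AK2 and EIF6, against 3.57% of all windows. As in the searches above, a member was counted if any of its windows matched (40 windows for the 29 members). The share of members is thus per gene and the background per window, and the 2 are not of like unit.

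The deposited levels are log2 values after quantile normalization, so they show each gene relative to the rest of its array. DCP2, measured to check the labels, was at 6.34 ± 0.10 with Dcp2 siRNA and 8.14 ± 0.13 with non-silencing siRNA (SD, n = 3 each), which is 28.7% of the reference level. With DcpS siRNA DCP2 was also lower, at 7.60 ± 0.27 (-0.54 log2 units, limma adjusted p = 0.0252). With NoBody and GAPDH siRNA DCP2 was at 8.54 ± 0.13 and 8.40 ± 0.12, and all these arrays lay above all non-silencing arrays. GAPDH was at 5.97 ± 0.24 with its siRNA and 7.20 ± 0.10 with non-silencing siRNA, 42.6% of the reference level. How well the probe set used reads GAPDH was not tested, so this share may not be that of the mRNA left. LOC550643 and DCPS are not analysed here, so those knockdowns are taken from the labels. Of 5 marker genes fixed for this line, 2 were measured, PAX2 and LHX1, and their mean lay between 5.63 and 6.06 on the 15 arrays. Non-silencing replicate 1 lay farthest from its group over the members, with a median absolute deviation of 0.119 log2 units against 0.0326 to 0.0962 for the other arrays.

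Most factors were not called, which with 3 arrays a group does not show that they were unchanged. By limma's moderated F test, which joins the 4 contrasts of an siRNA with non-silencing siRNA, and with Benjamini-Hochberg adjustment over all genes, 9 of the 35 members differed among the groups (25.7%), against a background of 12.2% of all genes. They were EIF5B, EIF5, EIF4EBP2, EEF1G, EIF4EBP1, EIF5A2, EIF2AK2, EIF4E2 and EIF4B. The other 26 were called in none of the comparisons. An unadjusted p under 0.05 in the F test was found for 14 of 35 members and for 4096 of 14884 genes. Of the 35 members, 31 lay above 5.47 log2 units, the median level of all named genes. The background shares given here and below thus come from genes of lower level on the whole. The part of level in the differences between these shares was not tested. Against non-silencing siRNA, 29 members were called with no siRNA, 5 with 1 siRNA, 1 (EIF5B) with 2, and 0 with 3 or 4.

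**Figure D1:**
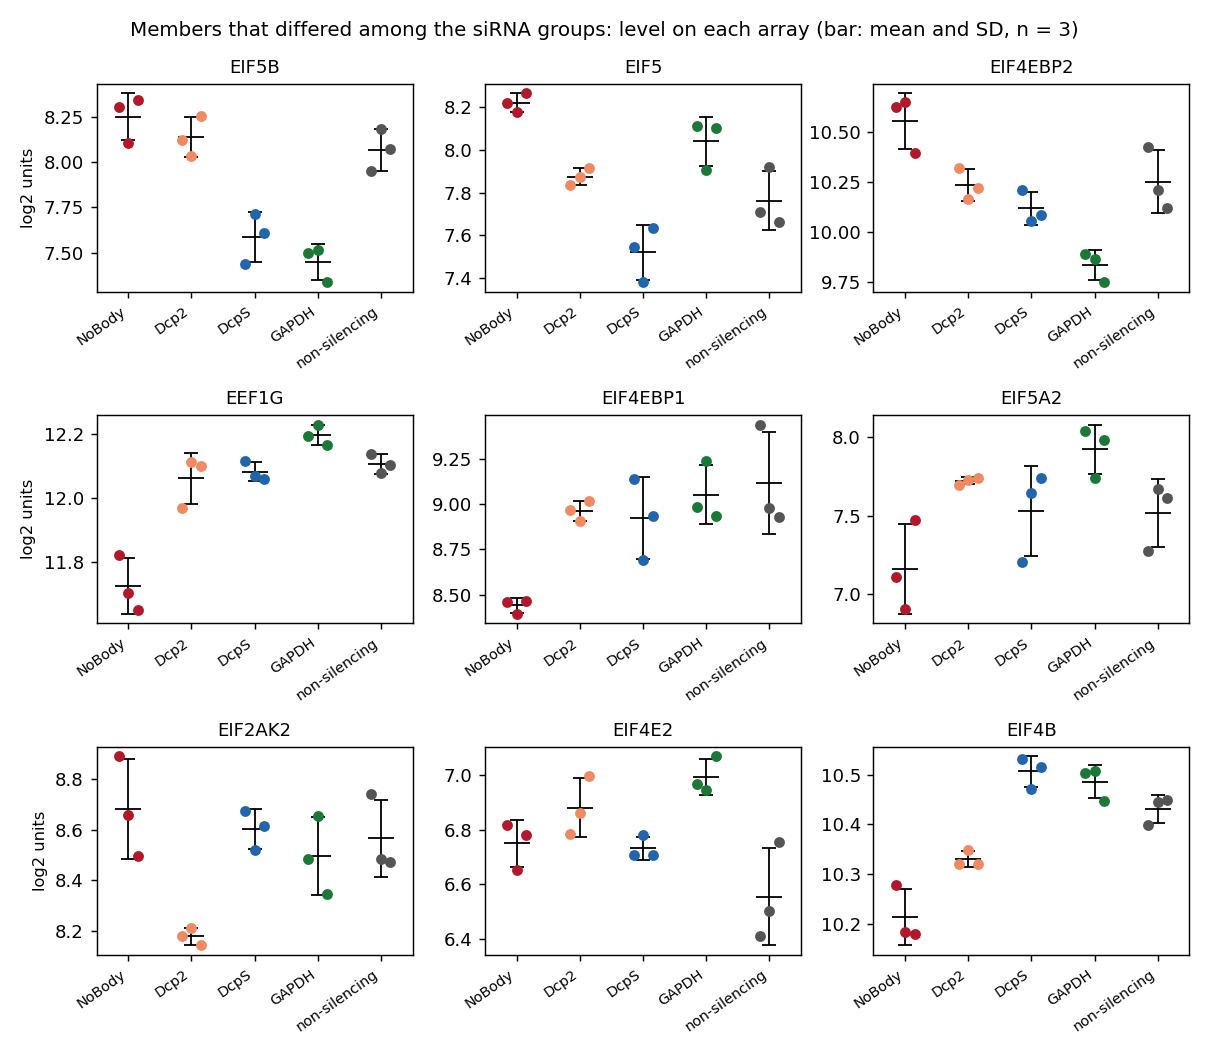
Levels in log2 units (vertical axes) of the 9 members that differed among the groups, with 1 point per array, the 5 siRNA groups along each horizontal axis, and bars for the mean and SD (n = 3). EIF5B is low with DcpS and GAPDH siRNA, and EIF4EBP1 and EEF1G are low with NoBody siRNA.

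With NoBody siRNA, 1 member was higher and 2 were lower than with non-silencing siRNA: 3 of 35 were called (8.57%), against 1.57% of all genes (0.658% higher, 0.907% lower). The arrays of the 2 groups did not overlap for 6 members, against 17% of all genes, and the members' median change was 0.00 log2 units (all genes -0.01). With Dcp2 siRNA 0 of 35 were called by limma, against 1.98% of all genes (1.05% higher, 0.927% lower, and 22.8% without overlap of the groups, which 11 members showed). An unadjusted limma p under 0.05 was found for 7 of 35 members and for 2421 of 14884 genes. The median change was -0.01 (all genes 0.00). DcpS siRNA gave 1 lower member (2.86%), against 3.61% of all genes (1.76% higher, 1.85% lower, and 18.5% without overlap of the groups, which 5 members showed), with a median change of -0.04 (all genes 0.00). GAPDH siRNA gave 1 higher and 2 lower members (8.57%), against 2% of all genes (0.726% higher, 1.27% lower, and 17.3% without overlap of the groups, which 7 members showed), with a median change of -0.02 (all genes 0.00). The 4 comparisons share the non-silencing arrays.

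Between siRNAs, 3 members were called for NoBody against Dcp2 (8.57%), with 3.2% of all genes called, and 6 for NoBody against DcpS (17.1%), with 6.4% of all genes. NoBody against GAPDH gave 6 members (17.1%) and 4.08% of all genes. Dcp2 against DcpS gave 3 (8.57%) and 5.64% of all genes, and Dcp2 against GAPDH gave 2 (5.71%) and 2.79%. DcpS against GAPDH gave 1 (2.86%) and 5.98%. Member shares for Dcp2 against DcpS, and for DcpS against GAPDH, DcpS against non-silencing and Dcp2 against non-silencing, were near or below that background.

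**Figure D2:**
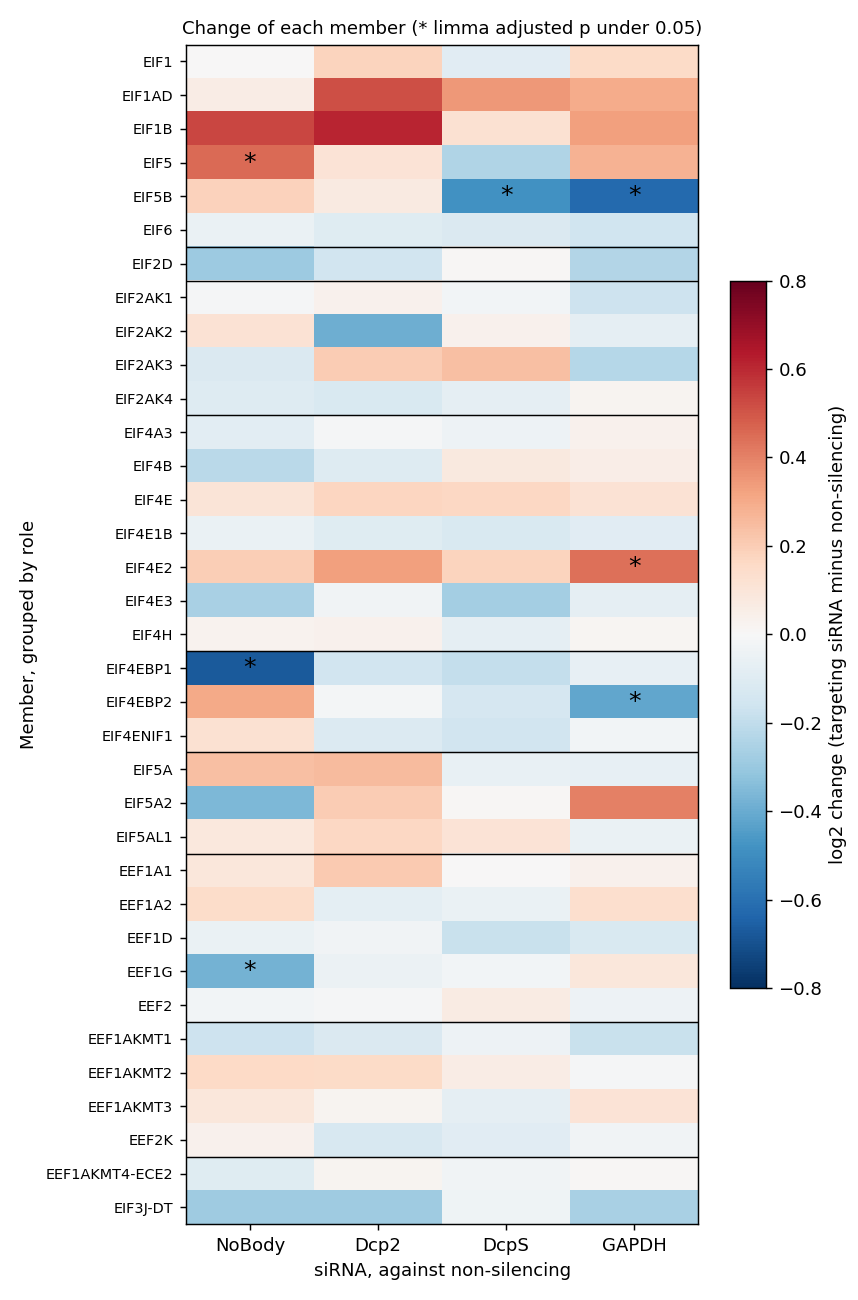
Log2 change against non-silencing siRNA of the 35 members (rows, grouped by role) with each of the 4 siRNAs (columns), where red is higher and blue lower and an asterisk marks a limma adjusted p under 0.05. The 7 marked cells lie between -0.67 and 0.46, and EIF5B is the 1 member marked with 2 siRNAs.

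The list of start codon recognition and subunit joining held the 2 members with the smallest p. EIF5B, the GTPase that joins the large ribosomal subunit, was at 8.31, 8.10 and 8.35 with NoBody siRNA, at 8.13, 8.03 and 8.25 with Dcp2 siRNA, at 7.44, 7.71 and 7.61 with DcpS siRNA, at 7.50, 7.51 and 7.34 with GAPDH siRNA, and at 7.95, 8.18 and 8.07 with non-silencing siRNA. Every array of the DcpS and GAPDH groups lay below every array of the other 3 groups. EIF5B fell by 0.62 log2 units with GAPDH siRNA (SE 0.10, limma adjusted p = 0.00463), to 65.1% of the non-silencing level. With DcpS siRNA it fell by 0.48 (SE 0.10, adjusted p = 0.0153), to 71.6%. NoBody and Dcp2 siRNA differed from non-silencing by 0.18 and 0.07 (adjusted p = 0.507 and 0.812).

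Directly compared, EIF5B was higher with NoBody siRNA than with DcpS siRNA (0.67, adjusted p = 0.00121) and than with GAPDH siRNA (0.80, adjusted p = 0.000344). Dcp2 siRNA likewise gave more EIF5B than DcpS siRNA (0.55, adjusted p = 0.00505) and than GAPDH siRNA (0.69, adjusted p = 0.0018). DcpS and GAPDH siRNA differed by 0.14 (adjusted p = 0.548). These 4 direct calls held in all 14 alternative settings. The DcpS call against non-silencing was lost without DcpS replicate 1, without non-silencing replicate 2 and when only the 6 compared arrays were fitted (adjusted p 0.0631 to 0.0958), and the GAPDH call only in the last of these (0.0559).

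CD68, the 1 measured gene of 3 on a list of blood cell markers, lay between 6.51 and 6.55 with NoBody siRNA, between 6.68 and 7.01 with Dcp2 siRNA, between 6.04 and 6.25 with DcpS siRNA, between 7.32 and 7.50 with GAPDH siRNA and between 6.17 and 6.42 with non-silencing siRNA. The NoBody, Dcp2 and GAPDH arrays lay above all non-silencing arrays, and the part of CD68 in the results of these 3 siRNAs was not tested. With no other gene of that list measured, CD68 cannot tell blood cells from a change of this gene within the line. Whether blood cells were present was not tested. ALB, the 1 gene listed for hepatocytes, lay between 3.25 and 3.72 over the 5 groups, below the array medians of 4.01 to 4.08.

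EIF5, which makes eIF2 hydrolyse GTP at the start codon, was at 8.22, 8.18 and 8.26 with NoBody siRNA, at 7.83, 7.87 and 7.91 with Dcp2 siRNA, at 7.54, 7.38 and 7.64 with DcpS siRNA, at 8.11, 7.91 and 8.10 with GAPDH siRNA, and at 7.71, 7.92 and 7.66 with non-silencing siRNA. The NoBody arrays lay above all others and the DcpS arrays below all others. EIF5 rose by 0.46 log2 units with NoBody siRNA (SE 0.10, adjusted p = 0.024), to 137% of the non-silencing level. Changes with Dcp2, DcpS and GAPDH siRNA were 0.11, -0.24 and 0.28 (adjusted p = 0.641, 0.207 and 0.183).

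The widest gap in EIF5 was NoBody over DcpS siRNA (0.70, adjusted p = 0.000491). DcpS siRNA was also below GAPDH siRNA (-0.52, adjusted p = 0.00354), and both calls held in all 14 settings. Dcp2 over DcpS siRNA (0.35, adjusted p = 0.0421) was lost in 9 settings, among them without any 1 of the Dcp2 replicates, without DcpS replicate 1 or 2, and with the replicate block (adjusted p 0.0528 to 0.144). The call against non-silencing was lost without any 1 NoBody replicate, without non-silencing replicate 1 or 3, and with only the 6 arrays (0.0616 to 0.113).

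The other 4 members listed under start codon recognition and subunit joining, EIF1, EIF1B, EIF1AD and EIF6, were not called. EIF1B, a close relative of the start codon factor eIF1, was at 8.65 ± 0.30 with NoBody siRNA, 8.73 ± 0.16 with Dcp2 siRNA and 8.12 ± 0.25 with non-silencing siRNA (SD, n = 3 each), differences of 0.53 and 0.61 (adjusted p = 0.217 and 0.105). EIF1AD, which resembles eIF1A, was 0.51 apart with Dcp2 siRNA (adjusted p = 0.157). EIF6, which keeps the ribosomal subunits apart, differed by -0.16 to -0.05 across the 4 siRNAs. EIF2D, which can deliver tRNA to the ribosome, differed by -0.29 to 0.01.

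Among the 4 kinases of eIF2, EIF2AK2 alone was called, and in direct comparisons only. It was at 8.89, 8.66 and 8.49 with NoBody siRNA, at 8.18, 8.21 and 8.14 with Dcp2 siRNA, at 8.67, 8.52 and 8.62 with DcpS siRNA, at 8.49, 8.65 and 8.34 with GAPDH siRNA, and at 8.74, 8.48 and 8.47 with non-silencing siRNA. All 3 Dcp2 arrays lay below every other array. NoBody siRNA gave more EIF2AK2 than Dcp2 siRNA (0.51, SE 0.11, limma adjusted p = 0.0227), and Dcp2 siRNA gave less than DcpS siRNA (-0.43, adjusted p = 0.0376).

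Against non-silencing, Dcp2 siRNA changed EIF2AK2 by -0.39 (adjusted p = 0.0858), which became a call only when dim genes were left out of the test (adjusted p = 0.0406). The NoBody call was lost without NoBody replicate 1 or 2, without any 1 Dcp2 replicate, and with only the 6 arrays (0.0519 to 0.139). The DcpS call was lost without any 1 of its 6 arrays (0.0521 to 0.13). EIF2AK1, EIF2AK3 and EIF2AK4, the heme-regulated, endoplasmic reticulum and amino acid sensing kinases, differed from non-silencing by -0.23 to 0.24.

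In the eIF4 group, which binds the cap and unwinds the leader, 2 of 7 members differed among the groups (28.6%, against 12.2% of all genes). EIF4E2, the cap-binding homologue known for repressing translation, was at 6.82, 6.65 and 6.78 with NoBody siRNA, at 6.78, 6.86 and 7.0 with Dcp2 siRNA, at 6.71, 6.78 and 6.71 with DcpS siRNA, at 6.97, 6.94 and 7.07 with GAPDH siRNA, and at 6.41, 6.50 and 6.75 with non-silencing siRNA. The GAPDH and Dcp2 arrays lay above all non-silencing arrays. EIF4E2 rose by 0.44 with GAPDH siRNA (SE 0.10, adjusted p = 0.0303), a call lost without any 1 GAPDH replicate, without non-silencing replicate 1 or 2, and with only the 6 arrays (0.055 to 0.176). With Dcp2 siRNA the difference was 0.33 (adjusted p = 0.0956), which became a call with dim genes left out (0.0443) or without non-silencing replicate 3 (0.0359).

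EIF4B, which helps the helicase eIF4A, was at 10.28, 10.18 and 10.18 with NoBody siRNA, at 10.32, 10.35 and 10.32 with Dcp2 siRNA, at 10.53, 10.47 and 10.52 with DcpS siRNA, at 10.50, 10.51 and 10.45 with GAPDH siRNA, and at 10.40, 10.45 and 10.45 with non-silencing siRNA. The NoBody arrays lay below all others. The change against non-silencing was -0.22 (adjusted p = 0.181). EIF4B was lower with NoBody siRNA than with DcpS siRNA (-0.29, SE 0.07, adjusted p = 0.0244) and than with GAPDH siRNA (-0.27, adjusted p = 0.0448). The first call was lost in 6 settings, among them without NoBody replicate 2 or 3 and without DcpS replicate 1 or 3 (0.0557 to 0.132), and the second in 11 of 14, among them without any 1 NoBody replicate and, at 0.0618, with the replicate block (0.0568 to 0.159).

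EIF4E itself, the main cap-binding factor, was at 6.37, 6.25 and 6.91 with NoBody siRNA, at 6.70, 6.51 and 6.53 with Dcp2 siRNA, and at 6.26, 6.46 and 6.51 with non-silencing siRNA. The NoBody arrays spanned the non-silencing ones. Differences were 0.10 (95% interval -0.19 to 0.40) with NoBody siRNA and 0.17 (-0.12 to 0.47) with Dcp2 siRNA. EIF4E1B, EIF4E3, EIF4A3 and EIF4H differed by -0.27 to 0.04 across the 4 siRNAs, and none was called.

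In the list of eIF4E inhibitors and its shuttle protein, 2 of 3 measured members differed among the groups (66.7%, against 12.2% of all genes). These were the 4E-binding proteins EIF4EBP1 and EIF4EBP2. The shuttle EIF4ENIF1 was not called (moderated F test, adjusted p = 0.146). EIF4EBP1 was at 8.46, 8.40 and 8.47 with NoBody siRNA, at 8.97, 8.91 and 9.02 with Dcp2 siRNA, at 9.14, 8.69 and 8.94 with DcpS siRNA, at 8.98, 9.24 and 8.94 with GAPDH siRNA, and at 9.44, 8.98 and 8.93 with non-silencing siRNA. All NoBody arrays lay below every other array. EIF4EBP1 fell by 0.67 log2 units against non-silencing (SE 0.14, adjusted p = 0.0193), to 62.7% of that level. It was also lower than with Dcp2 siRNA (-0.52, adjusted p = 0.0471), DcpS siRNA (-0.48, adjusted p = 0.045) and GAPDH siRNA (-0.61, adjusted p = 0.0173).

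The EIF4EBP1 call against non-silencing was lost without any 1 NoBody replicate, without non-silencing replicate 1, which held the highest value, and with only the 6 arrays (0.0578 to 0.0912), with the change between -0.77 and -0.51 in all settings. Against Dcp2 siRNA it was lost without any 1 of the 6 arrays (0.0781 to 0.147, median centring included). Against DcpS siRNA it was lost without any 1 NoBody replicate or DcpS replicate 1 or 3 (0.0679 to 0.183, median centring and the 6 arrays included). Against GAPDH siRNA it was lost without NoBody replicate 1 or 2 or GAPDH replicate 2 (0.058 to 0.0761).

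EIF4EBP2 was at 10.62, 10.65 and 10.40 with NoBody siRNA, at 10.32, 10.16 and 10.22 with Dcp2 siRNA, at 10.21, 10.05 and 10.08 with DcpS siRNA, at 9.89, 9.86 and 9.75 with GAPDH siRNA, and at 10.42, 10.21 and 10.12 with non-silencing siRNA. The GAPDH arrays lay below all others, while the NoBody and non-silencing arrays overlapped. EIF4EBP2 fell by 0.42 with GAPDH siRNA (SE 0.10, adjusted p = 0.0437), a call lost in 8 of 14 settings, among them without any 1 GAPDH replicate and without non-silencing replicate 1 or 2 (0.052 to 0.186). With NoBody siRNA the difference from non-silencing was 0.31 (adjusted p = 0.176).

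Between siRNAs, EIF4EBP2 was higher with NoBody than with GAPDH siRNA (0.72, adjusted p = 0.000623), a call kept in all 14 settings, and than with DcpS siRNA (0.44, adjusted p = 0.016), a call lost without NoBody replicate 1 or 2, without DcpS replicate 2 and with only the 6 arrays (0.0589 to 0.074). Dcp2 over GAPDH siRNA (0.40, adjusted p = 0.042) was lost without any 1 of the 6 arrays (0.0678 to 0.165, median centring included). EIF4ENIF1, the shuttle protein 4E-T that carries eIF4E to the nucleus and to P-bodies, was at 6.86 ± 0.10 with NoBody siRNA, 6.63 ± 0.04 with Dcp2 siRNA and 6.74 ± 0.08 with non-silencing siRNA (SD, n = 3 each). Its differences from non-silencing, 0.12 (95% interval -0.05 to 0.29) and -0.11 (-0.28 to 0.06), were not called.

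Of the eIF5A genes, whose product helps ribosomes past difficult peptide bonds, EIF5A2 was called in 1 direct comparison. It was at 7.11, 6.90 and 7.47 with NoBody siRNA, at 7.70, 7.73 and 7.74 with Dcp2 siRNA, at 7.20, 7.65 and 7.74 with DcpS siRNA, at 8.04, 7.74 and 7.99 with GAPDH siRNA, and at 7.27, 7.67 and 7.62 with non-silencing siRNA. The NoBody and GAPDH arrays did not overlap, and the non-silencing arrays overlapped those of NoBody siRNA. EIF5A2 was lower with NoBody than with GAPDH siRNA (-0.76, SE 0.16, adjusted p = 0.0113), a call lost without NoBody replicate 1 or 2 or GAPDH replicate 1 (0.0525 to 0.062). EIF5A and EIF5AL1 were not called; these genes are known to be near-identical, and whether a probe set reads both was not tested.

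Among the elongation factors, EEF1G was the 1 called member. Its probe set with the higher mean was at 11.82, 11.71 and 11.65 with NoBody siRNA, at 11.97, 12.11 and 12.10 with Dcp2 siRNA, at 12.12, 12.07 and 12.06 with DcpS siRNA, at 12.19, 12.23 and 12.17 with GAPDH siRNA, and at 12.14, 12.08 and 12.10 with non-silencing siRNA. All NoBody arrays lay below all others. By this probe set EEF1G fell by 0.38 against non-silencing (SE 0.08, adjusted p = 0.0226), to 76.9% of that level, and was lower than with Dcp2 (-0.33, adjusted p = 0.0295), DcpS (-0.35, adjusted p = 0.0129) and GAPDH siRNA (-0.47, adjusted p = 0.00262).

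The second probe set of EEF1G did not show this. It lay between 10.83 and 11.03 with NoBody siRNA and between 11.01 and 11.02 with non-silencing siRNA, a difference of -0.06 (SE 0.08, adjusted p = 0.859 in a fit of all named probe sets). With the mean of the 2 probe sets none of the 4 EEF1G calls remained. The call against non-silencing was also lost without NoBody replicate 2 or 3, without any 1 non-silencing replicate and with only the 6 arrays (0.0544 to 0.203), and that against Dcp2 siRNA without any 1 of the 6 arrays (0.0503 to 0.14). The call against DcpS siRNA was lost without NoBody replicate 3 and with only the 6 arrays (0.0567 to 0.0969).

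**Figure D3:**
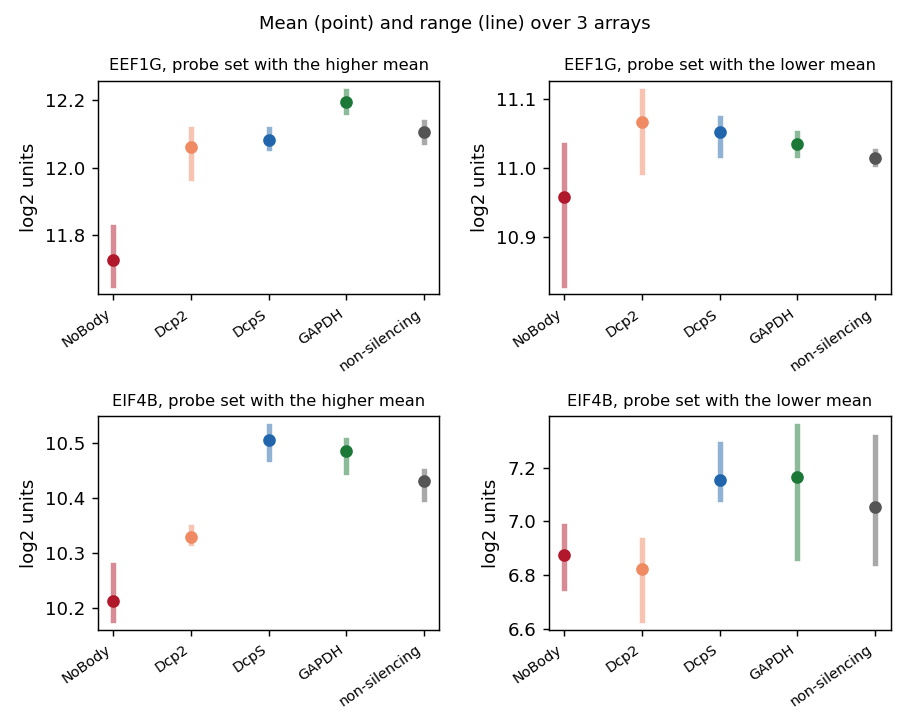
Mean (point) and range (line) over 3 arrays, in log2 units, of both probe sets of EEF1G and of EIF4B in each siRNA group. The higher EEF1G probe set is low with NoBody siRNA, while in the lower one the NoBody range includes the non-silencing range.

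EIF4B was the other member with 2 probe sets. Its second one differed by -0.28 for NoBody against DcpS siRNA and by -0.29 for NoBody against GAPDH siRNA, near the values of the first, but was not called (adjusted p = 0.321 and 0.322).

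EEF2, the translocase, was at 13.00, 12.96 and 12.88 with NoBody siRNA, at 12.95, 12.96 and 12.96 with Dcp2 siRNA, and at 13.01, 12.97 and 12.92 with non-silencing siRNA. The groups overlapped, with differences of -0.02 (95% interval -0.18 to 0.14) and -0.01 (-0.17 to 0.15). EEF1A1, the main carrier of aminoacyl-tRNA, differed by 0.09 (-0.14 to 0.32) with NoBody siRNA and 0.21 (-0.02 to 0.44) with Dcp2 siRNA. Its 1 probe set had a mean of 7.42 over the 15 arrays, against 9.16 for EEF1A2 and 12.97 for EEF2. How well that probe set reads EEF1A1 was not tested. EEF1A1 and EEF1G are known to have processed copies in the genome, and whether their probes match a copy was not tested. EEF1A2 and EEF1D were not called either.

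Of 9 genes listed from general knowledge as having an oligopyrimidine tract, 5 were measured (EEF1A1, EEF1D, EEF1G, EEF2 and EIF4B). At the annotated starts printed above, EEF1A1, EEF2 and EIF4B carry such a run and EEF1G does not. With NoBody siRNA 1 of them was called lower, against 0.907% of all genes. This was EEF1G by its probe set with the higher mean, and the second probe set was not called. With the other 3 siRNAs 0 were called against non-silencing by limma, and 0 had an unadjusted p under 0.05. Of all 14884 genes, 2421, 2395 and 2030 had such a p with Dcp2, DcpS and GAPDH siRNA. None of EEF2K, the kinase that inhibits eEF2, and the eEF1A methyltransferases EEF1AKMT1, EEF1AKMT2 and EEF1AKMT3 was called, with differences from non-silencing of -0.18 to 0.16. EEF1AKMT4-ECE2, a readthrough of 2 neighbouring genes, and EIF3J-DT were not called. EEF1AKMT1, EEF1D, EIF5AL1 and EEF1AKMT4-ECE2 had means under 5 log2 units, near the array medians of 4.01 to 4.08, where a change can be understated.

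The genes that control these factors were counted from 7 lists, of which 44 of 66 genes were measured. In the list of mTORC1 and the eIF4E kinases (12 of 17 measured), MKNK2, a kinase that phosphorylates eIF4E, was called with every siRNA. It was at 6.91, 6.62 and 6.94 with NoBody siRNA, at 8.31, 8.13 and 8.38 with Dcp2 siRNA, at 8.29, 8.50 and 8.09 with DcpS siRNA, at 8.28, 8.45 and 8.31 with GAPDH siRNA, and at 7.46, 7.63 and 7.67 with non-silencing siRNA. The NoBody arrays lay below, and those of the other 3 siRNAs above, all non-silencing arrays.

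MKNK2 fell by 0.76 with NoBody siRNA (SE 0.12, adjusted p = 0.00413), and rose by 0.69 with Dcp2 (adjusted p = 0.0101), 0.70 with DcpS (adjusted p = 0.00387) and 0.76 with GAPDH siRNA (adjusted p = 0.00315). NoBody siRNA was 1.45, 1.47 and 1.53 log2 units below Dcp2, DcpS and GAPDH siRNA (changes -1.45, -1.47 and -1.53, adjusted p = 1.12e-05, 4.79e-06 and 2.78e-06). The Dcp2 call against non-silencing was lost when Dcp2 replicate 1, Dcp2 replicate 3 or non-silencing replicate 1 was left out (0.0506 to 0.0647), and the DcpS call with only the 6 arrays (0.0519).

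MTOR, the kinase of the complex, was at 6.98, 7.18 and 7.06 with Dcp2 siRNA and at 7.83, 7.70 and 7.51 with non-silencing siRNA, with no overlap. It fell by 0.61 (SE 0.13, adjusted p = 0.0256), a call lost without any 1 Dcp2 replicate, without non-silencing replicate 1 or 2 and with only the 6 arrays (0.0535 to 0.125). DEPTOR, an inhibitor of MTOR, fell by 0.44 with DcpS siRNA (adjusted p = 0.0115; lost without non-silencing replicate 2 and with the 6 arrays, 0.0563 to 0.0786) and by 0.40 with GAPDH siRNA (adjusted p = 0.0307; lost in 5 settings, among them without GAPDH replicate 1 or 3 and non-silencing replicate 1 or 2, 0.0965 to 0.158). RRAGD, a GTPase that brings mTORC1 to the lysosome, was at 7.51, 8.06 and 7.98 with DcpS siRNA and at 8.52, 8.54 and 8.46 with non-silencing siRNA. It fell by 0.66 (adjusted p = 0.0087), a call lost with only the 6 arrays (0.0899).

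**Figure D4:**
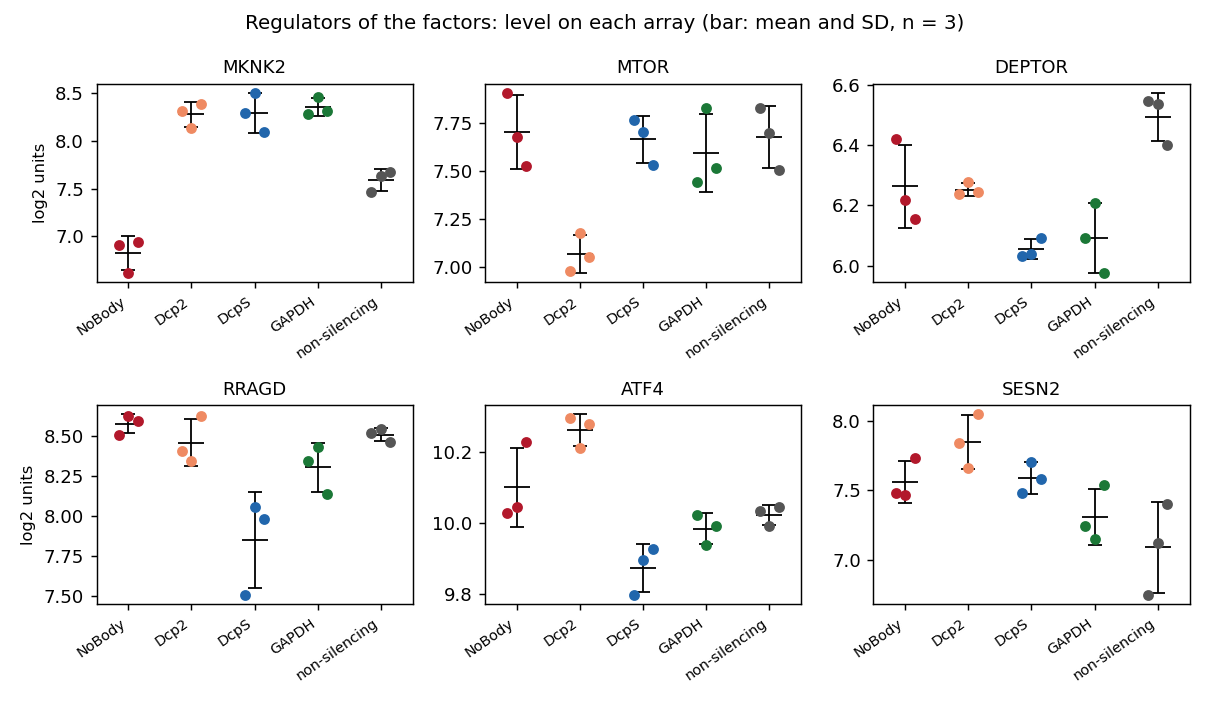
Levels in log2 units (vertical axes) of 6 genes that regulate the factors, with 1 point per array and bars for the mean and SD (n = 3) in each siRNA group. MKNK2 is lowest with NoBody siRNA and higher than non-silencing with the other 3 siRNAs, and MTOR is lowest with Dcp2 siRNA.

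In the list of the integrated stress response, the programme that follows eIF2 phosphorylation, 8 of 11 genes were measured. Dcp2 siRNA raised 2 and lowered 0 of the 8, against 1.05% of all genes called higher and 0.927% lower, with a median change of 0.40 (all genes 0.00). The other 3 siRNAs changed 0 of the 8 against non-silencing by limma. For NoBody, DcpS and GAPDH siRNA 1, 2 and 1 had an unadjusted p under 0.05, against 1854, 2395 and 2030 of 14884 genes. ATF3, a stress transcription factor, was at 8.35, 8.32 and 8.24 with Dcp2 siRNA and at 6.17, 7.12 and 7.40 with non-silencing siRNA. It rose by 1.41 (SE 0.28, adjusted p = 0.023; lost without any 1 Dcp2 replicate, without non-silencing replicate 1 or 2 and with the 6 arrays, 0.0523 to 0.0987). SESN2, a stress-induced inhibitor of mTORC1, rose by 0.76 (adjusted p = 0.0241; lost without Dcp2 replicate 1 or 3, non-silencing replicate 1 or 2 and with the 6 arrays, 0.0737 to 0.111). ATF4, the central factor of the programme, was not called with Dcp2 siRNA against non-silencing. It was higher with Dcp2 than with DcpS siRNA (0.39, limma adjusted p = 0.00928), a call lost with the 6 arrays (0.0544). Its means were 10.26 with Dcp2 siRNA, 9.87 with DcpS siRNA and 10.02 with non-silencing siRNA.

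In the remaining lists few genes were called against non-silencing. GAPDH siRNA raised DENR, a factor for ribosome recycling and reinitiation, by 0.42 (adjusted p = 0.0437), and DPH5, an enzyme of the diphthamide on eEF2, by 0.54 (adjusted p = 0.0487), and each call was lost in 8 of 14 settings, the replicate block and median centring among them. For DENR these included leaving out any 1 GAPDH replicate or non-silencing replicate 2 or 3 (0.0563 to 0.201), and for DPH5 GAPDH replicate 1 or 2 or any 1 non-silencing replicate (0.0659 to 0.157). The lists of scanning factors and of hypusine and diphthamide enzymes had 6 and 7 measured genes, and each held 1 of these calls (16.7% and 14.3%). With GAPDH siRNA 2% of all genes were called against non-silencing, and 0.726% were called higher. The lists of poly(A) binding proteins, termination factors and mitochondrial factors (3, 3 and 5 measured) held 0 calls against non-silencing by limma. Of all genes, 1.57%, 1.98%, 3.61% and 2% were called with NoBody, Dcp2, DcpS and GAPDH siRNA. For GAPDH siRNA 1 gene of each list had an unadjusted p under 0.05, against 2030 of 14884 genes. For Dcp2 siRNA 1 mitochondrial factor had such a p, against 2421 of 14884 genes.

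Further genes of these lists were called between siRNAs. In the mTORC1 list MTOR was higher with NoBody than with Dcp2 siRNA (0.63, adjusted p = 0.0117; lost without NoBody replicate 1 or Dcp2 replicate 1, 0.0633 to 0.0785). Dcp2 siRNA gave less MTOR than DcpS siRNA (-0.60, adjusted p = 0.01; lost without replicate 1 of either group, 0.0514 to 0.0533) and than GAPDH siRNA (-0.53, adjusted p = 0.0336; lost without any 1 Dcp2 replicate, without GAPDH replicate 2 and with the 6 arrays, 0.0617 to 0.167). RRAGD was higher with NoBody than with DcpS siRNA (0.72, adjusted p = 0.00305), a call kept in all 14 settings. Dcp2 siRNA also gave more RRAGD than DcpS siRNA (0.61, adjusted p = 0.0102; lost without Dcp2 replicate 3 and with the 6 arrays, 0.0549 to 0.0691). DcpS siRNA gave less than GAPDH siRNA (-0.45, adjusted p = 0.0495), a call lost in 7 settings, among them without DcpS replicate 1 or 3 or GAPDH replicate 1 or 2 (0.0526 to 0.194).

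In the stress response list ATF3 was lower with NoBody than with Dcp2 siRNA (-1.11, adjusted p = 0.0432; lost without NoBody replicate 1 or 2 or any 1 Dcp2 replicate, 0.0995 to 0.18). DDIT4, a stress-induced inhibitor of mTORC1, was at 8.25, 8.08 and 7.95 with Dcp2 siRNA, at 6.84, 7.25 and 7.57 with DcpS siRNA and at 7.30, 7.15 and 7.32 with GAPDH siRNA, and the Dcp2 arrays lay above the others. Its difference was 0.87 against DcpS siRNA (adjusted p = 0.0192; lost without Dcp2 replicate 1 or 2 or DcpS replicate 1, 0.058 to 0.101). Against GAPDH siRNA it was 0.84 (adjusted p = 0.0371; lost without any 1 of the 6 arrays, 0.0631 to 0.152).

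CYFIP1, an eIF4E-binding partner of FMRP in the list of scanning and other initiation regulators, was at 6.74, 6.62 and 6.86 with Dcp2 siRNA and at 7.55, 7.27 and 7.14 with DcpS siRNA, with no overlap. It was lower with Dcp2 siRNA (-0.58, adjusted p = 0.00723) in all 14 settings. PAIP2B, an inhibitor of poly(A) binding protein, was at 9.03, 9.06 and 8.98 with Dcp2 siRNA, at 8.93, 9.14 and 9.14 with DcpS siRNA and at 8.69, 8.61 and 8.63 with GAPDH siRNA, and the GAPDH arrays lay below the others. It was higher with DcpS than with GAPDH siRNA (0.43, adjusted p = 0.00569; lost with the 6 arrays, 0.0671). Dcp2 siRNA gave more PAIP2B than GAPDH siRNA as well (0.38, adjusted p = 0.023; lost without any 1 of the 6 arrays and with only those arrays, 0.0502 to 0.0944).

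HBS1L, which rescues stalled ribosomes and stands in the termination list, was lower with DcpS than with GAPDH siRNA (-0.36, adjusted p = 0.0264; lost without DcpS replicate 1 or 2, GAPDH replicate 1 or 3 and with the 6 arrays, 0.0536 to 0.14). DPH5 was lower with Dcp2 than with GAPDH siRNA (-0.59, adjusted p = 0.0236; lost without Dcp2 replicate 1 or 3, GAPDH replicate 1 or 2 and with the 6 arrays, 0.076 to 0.123). The mitochondrial list held 0 calls between siRNAs by limma. Its highest count at an unadjusted p under 0.05 was 3 of 5 genes, for NoBody against GAPDH siRNA, against 2519 of 14884 genes.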

How the data were processed

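The values deposited by the authors are log2 probe set summaries of 15 Affymetrix whole-transcript arrays, with the base inferred from their range. RMA and the oligo package were used, per the submitters' processing notes; their versions are not given in the sources used here. RMA includes quantile normalization, so a shift of all transcripts cannot be seen, and no detection calls were used. The number of arrays limits the precision. Of 53617 probe sets, 16098 had 1 gene symbol in the platform table and 37519 were unnamed here and left out. For the 779 genes with several probe sets (2 of them members), the brightest by its mean on the 15 arrays stood for the gene.

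The log2 levels of all 15 arrays were fitted with limma 3.58.1 (R 4.3.3), with 1 mean per group and 10 residual degrees of freedom. Contrasts were each siRNA against non-silencing and the 6 pairs of siRNAs, two-sided, adjusted by Benjamini-Hochberg over 14884 genes within a contrast, and called at an adjusted p under 0.05. Array medians lay between 4.01 and 4.08, correlations within groups between 0.983 and 0.991, and no pair of arrays was identical. The fit was tested on simulated data.

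The members, lists and tests were chosen with earlier results of these data known. Named were members called against non-silencing, in the F test or directly, EIF4E, EIF4ENIF1, EEF1A1 and EEF2, called genes of the pathway lists and MKNK2; other members stand as examples or ranges. The pyrimidine search within 5 bases of the start was set first, and the search at the start itself was added after its counts were seen. Alternatives were a replicate block, median centring, repeated quantile normalization, leaving out dim genes, a variance trend, array weights, the mean of probe sets, only the 6 compared arrays, and leaving out each array.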

Additional observations from a re-analysis of the deposited data

How the results depend on the processing

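Of the 28 called changes of members, 7 were called in every alternative, 21 were lost in at least 1, and 0 reversed. The 7 were EIF5 and EIF5B for NoBody against DcpS, EIF4EBP2 and EIF5B for NoBody against GAPDH, EIF5B for Dcp2 against DcpS and against GAPDH, and EIF5 for DcpS against GAPDH. Leaving out 1 array at a time gave 0 to 2 called members for NoBody, 0 to 1 for Dcp2, 0 to 1 for DcpS and 1 to 3 for GAPDH, each against non-silencing. Between siRNAs it gave 0 to 2 for NoBody against Dcp2, 3 to 5 for NoBody against DcpS, 3 to 5 for NoBody against GAPDH, 1 to 4 for Dcp2 against DcpS, 1 for Dcp2 against GAPDH and 1 for DcpS against GAPDH; by the F test it gave 4 to 9. With only the 6 compared arrays, and so fewer degrees of freedom, the counts were 0 for NoBody, 0 for DcpS and 0 for GAPDH against non-silencing, 1 for NoBody against Dcp2, 2 for NoBody against DcpS and 1 for Dcp2 against GAPDH. Without dim genes, and so with fewer genes tested, they were 2 for Dcp2 against non-silencing, 6 for NoBody against Dcp2, 5 for Dcp2 against DcpS and 2 for DcpS against GAPDH. NoBody against Dcp2 gave 1 with median centring, 5 with a variance trend and 6 with array weights; Dcp2 against GAPDH gave 1 with median centring, and DcpS against GAPDH 2 with a variance trend; the cause was not tested. The pyrimidine tract search gave 10 members within 5 bases of the start and 4 at the start, the second added after seeing the data.

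The replicate numbers gave no clear pairing of the samples over all groups. Of 10 pairs of groups per number, 3, 1 and 5 had deviations that correlated above 0.1, with highest values of 0.39, 0.11 and 0.32. Of the 15 arrays, 6 correlated best with their own number. A batch shared by some of the groups was not tested. With the replicate block the called members were 3, 0, 1 and 3 for NoBody, Dcp2, DcpS and GAPDH against non-silencing, 4, 6 and 5 for NoBody against Dcp2, DcpS and GAPDH, 2 for Dcp2 against DcpS, 2 for Dcp2 against GAPDH, 1 for DcpS against GAPDH, and 8 by the F test. Among members, EIF4B for NoBody against GAPDH (adjusted p = 0.0618) and EIF5 for Dcp2 against DcpS (0.0528) lost their calls under it.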
